A study of Mus musculus with 2 samples.

Results

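The genes described here were 10 feedback targets of the extracellular signal-regulated kinase (ERK) pathway that act below fibroblast growth factor (FGF) receptors. They were chosen by their known role, with earlier results of these data known, and all 10 were among the 27995 features that the libraries shared. Those features were part of the 28651 features of the inguinal white adipose tissue (iWAT) library and the 29958 of the interscapular brown adipose tissue (iBAT) library. Both libraries were single-cell RNA sequencing libraries of primary stromal vascular cells from wild-type C57BL/6N mice aged 8 to 12 weeks, with pooled tissue, grown to 80% confluency. Per the labels, each depot had an untreated culture and cultures given 5.5 nM of FGF1, of FGF2 and of FGF8 over 48 h, and 10000 cells from each of these 4 treatments were tagged and merged into 1 library. The published methods name vehicle, FGF1 and FGF2 only, and this difference was not settled here. The files used here held 0 tag features, so no cell was given a treatment. Every value below is therefore a value of 1 library per depot over treated and untreated cells together, and intervals (95%) cover counting error only.

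FGF receptors signal through the adaptor Frs2 and the kinases Raf, Mek and Erk, and active Erk raises transcription of genes whose products dampen the same pathway. Dusp4, Dusp5 and Dusp6 encode phosphatases that remove phosphate from Erk, in the nucleus for Dusp4 and Dusp5 and in the cytoplasm for Dusp6. Spry1, Spry2 and Spry4 encode Sprouty proteins and Spred1 and Spred2 their relatives, which act on the pathway at the level of Ras and Raf, while Etv4 and Etv5 encode transcription factors of the ETS family that act downstream of FGF signals. Because these transcripts follow Erk activity, they are widely used as a readout of FGF response.

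Cells were kept if their gene count lay above 200 and below 7500 and mitochondrial UMIs (unique molecular identifiers, 1 per captured transcript) stayed under 30%. These numbered 29744 in iWAT and 28215 in iBAT. At least 1 UMI of Pdgfra, a receptor of adipose stromal cells, was found in 17460 iWAT cells (58.7%) and 25927 iBAT cells (91.9%). Those cells had a median of 18119 UMIs in iWAT and 27838 in iBAT, and at an equal depth of 10000 UMIs per cell the Pdgfra-positive share was 49.7% and 79.4%. The matrix gene Dcn was 1.92 times as high in iWAT cells with Pdgfra as in those without and 1.93 times in iBAT. Fn1 was lower in iWAT (0.581). In iBAT Postn (0.417), Col5a1 (0.825), Col1a1 (0.840) and Col1a2 (0.973) were lower, while Col3a1, Lum, Pdgfrb, Fn1 and Thy1 were higher. Stromal genes were thus also abundant among cells without a Pdgfra UMI. The libraries differed in sex-linked transcripts. Xist, expressed from the inactive X chromosome, was at 330 CPM (the UMIs of a gene among all UMIs of the same cells, where 100 CPM is 1 UMI in 10000) in the Pdgfra-positive cells of iWAT and 0.0511 CPM in iBAT, and the Y-linked Ddx3y at 1.18 and 81.4 CPM. Depot, sex of the donor mice, culture, library and the mix of treatments among the captured cells, which is not known, cannot be told apart. The libraries shared 8 cell barcodes.

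Promoter-proximal sequence was held for 7 of the 10 genes in the RefSeq table used (GRCm38.p6). Dusp5 and Dusp6 are shown because their correlation was the highest in iBAT before counting noise was removed. Spry1 is shown because it stood apart from the others. Each stretch is the part of the 250 bases before the RefSeq start that holds none of the gene's own annotated exons, and it was placed by exact match on GRCm39, the build of the files. Dusp5 and Spry1 lie directly upstream of the annotated gene, and the Dusp6 stretch lies between exons of longer annotated Dusp6 transcripts. All 3 are on the plus strand, Dusp5 at chr19:53517326-53517531, Dusp6 at chr10:99098843-99099067 and Spry1 at chr3:37693846-37693896. Capitals mark matches, on either strand, to the ETS core (CGGAA or AGGAA), the CArG box bound by serum response factor or the TEAD site (GGAATG).
Dusp5: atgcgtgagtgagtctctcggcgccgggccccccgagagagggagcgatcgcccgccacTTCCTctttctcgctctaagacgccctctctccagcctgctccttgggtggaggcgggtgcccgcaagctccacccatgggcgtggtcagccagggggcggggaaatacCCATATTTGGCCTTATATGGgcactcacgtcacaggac
Dusp6: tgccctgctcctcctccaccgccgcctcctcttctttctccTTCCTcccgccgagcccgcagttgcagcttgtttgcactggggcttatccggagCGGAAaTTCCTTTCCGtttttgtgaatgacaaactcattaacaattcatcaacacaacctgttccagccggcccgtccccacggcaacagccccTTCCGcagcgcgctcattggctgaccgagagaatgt
Spry1: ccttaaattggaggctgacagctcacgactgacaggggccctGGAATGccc
The Dusp6 stretch held 5 ETS cores, and 2.08% of the 32851 promoter windows in the table held 5 or more within 250 bases. The printed Dusp5 stretch held 2 adjacent CArG boxes and 1 ETS core, and its whole 250-base window held 2 ETS cores. Of all windows, 1.47% had a CArG box, 71.4% an ETS core and 38.0% 2 or more ETS cores. The 51 printed bases of Spry1 held 1 TEAD site, a motif found in 12.6% of windows, and no ETS core was found in its whole 250-base window. Counted over whole windows, neither pattern was particular to these genes. The Spred2 window also held 5 ETS cores, 1 of the 2 Etv5 windows held 0 and the other 1, and those of Spry2 and Spred1 held 2 each. In its stretch outside its own exons Spred2 held 3. The Spry2 window and the Etv5 window with 1 ETS core lay wholly within exons of their own gene. The AP-1 site (TGANTCA) and the cyclic AMP response element (TGACGTCA), searched likewise, were not matched in the windows of Dusp5, Dusp6 and Spry1 and occurred in 6.75% and 1.55% of all windows. A TEAD site that follows A or C would also be counted as an ETS core. These matches describe letters, not binding.

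All 10 genes were detected at 10 CPM or more in the Pdgfra-positive cells of both libraries. Spry4 alone differed by at least 2-fold, with 18.1 CPM in iWAT and 40.4 CPM in iBAT (ratio 2.23, 2.17 to 2.29). Among the 8991 genes with at least 10 CPM in either library, 3.73% were 2-fold or more higher in iBAT and 4.42% were 2-fold or more lower. Of the 10, 6 were higher in iBAT and 4 lower, and their median log2 ratio of iBAT over iWAT was 0.25 against 0.05 for all genes tested. The summed UMIs of the 10 genes came to 526 CPM (523 to 528) in iWAT and 656 CPM (654 to 658) in iBAT.

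Among the phosphatases, Dusp5 was at 56.4 CPM in iWAT and 84.3 in iBAT (ratio 1.49), and Dusp6 at 50.1 and 70.2 (ratio 1.40). Dusp4 was lower in iBAT, at 49.9 CPM in iWAT and 37.8 in iBAT (ratio 0.757). The family sum was 156 CPM in iWAT and 192 in iBAT.

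Spry1 was lower in iBAT, at 48.4 against 59.9 CPM (ratio 0.808), while Spry2 was close in the libraries, at 73.9 against 69.1 CPM (ratio 1.07). The log2 ratio of Spry2 was 0.10 and turned to -0.01 when at least 2 Pdgfra UMIs were asked for. With Spry4 higher in iBAT, the Sprouty genes had no common direction, and their sum was at 147 CPM in iWAT and 163 in iBAT.

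Spred1 was at 109 CPM in iWAT and 178 in iBAT (ratio 1.63), and Spred2 at 60.5 and 79.6 (ratio 1.31). Together the Spred genes made up 32.3% of the UMIs of the 10 genes in iWAT and 39.2% in iBAT. Both ETS factors were lower in iBAT, with Etv4 at 24.5 and 19.9 CPM (ratio 0.814) and Etv5 at 28.2 and 24.3 (ratio 0.859), and their share of the summed UMIs was 10% and 6.74%. Counting intervals of all 10 ratios excluded 1, but with 1 library per depot no spread between replicates is known.

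**Figure D1:**
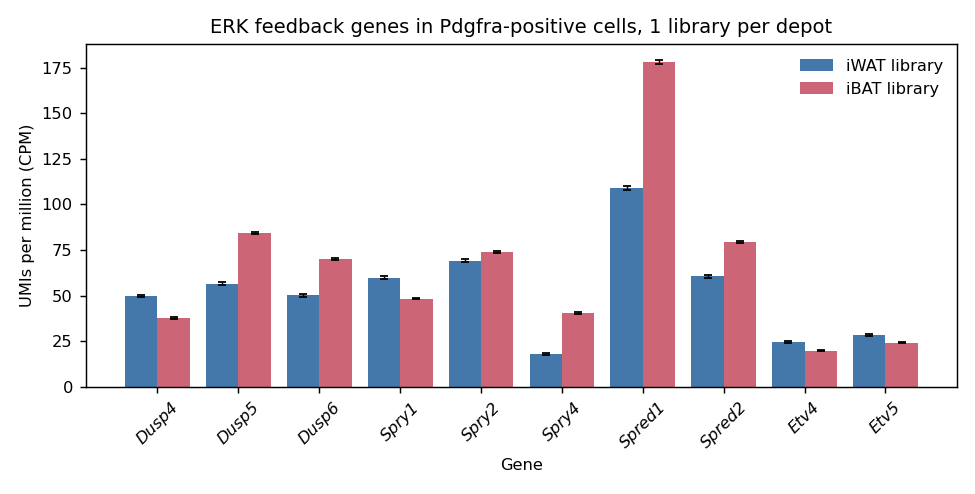
CPM (y axis) of the 10 genes (x axis) in Pdgfra-positive cells of the iWAT (blue) and iBAT (red) library, with bars that start at 0 and exact Poisson intervals for counting error. Spry4 is at 18.1 CPM in iWAT and 40.4 in iBAT and Spred1 at 109 and 178, while Dusp4, Spry1, Etv4 and Etv5 are lower in iBAT.

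The rest of the pathway was read from lists of 9 ligands and receptors, 15 adaptors and kinases and 19 other Erk-induced or feedback genes. None of the 15 adaptors and kinases of the cascade passed 2-fold in either direction, and their ratios ran from 0.621 for Map2k1, which encodes a Mek kinase, to 1.35 for Mapk3, which encodes Erk1. The receptor gene Fgfr1 was at 290 CPM in iWAT and 282 in iBAT. Of 6 ligands and receptors tested, Fgf7 (87.8 and 273 CPM) and Fgf10 (12.6 and 77.1 CPM) were 2-fold or more higher in iBAT, and Fgf2 was lower there without passing 2-fold, at 286 and 190 CPM. Fgfr3, Fgfr4 and Klb stayed under 10 CPM in both.

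Of 17 other Erk-induced or feedback genes tested, Etv1 (4.17 and 16.5 CPM) and the cyclin gene Ccnd1 (128 and 419 CPM) were 2-fold or more higher in iBAT. The immediate early genes Fos (386 and 112 CPM) and Egr1 (663 and 312 CPM) were 2-fold or more lower. This list had no common direction between the libraries, with 7 genes above a ratio of 1 and 10 below it. Il17rd was under 10 CPM and Spry3 was not a feature of both libraries.

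Over single Pdgfra-positive cells, thinned to 10000 UMIs each, the genes were sparse and unevenly spread. Thinning kept 15671 iWAT cells, leaving out 1789 shallower ones, and all 25927 iBAT cells. Spred1 had a UMI in 59.6% of cells in iWAT (interval 58.8 to 60.4) and 73.8% in iBAT (interval 73.2 to 74.3). Spry4, the gene past 2-fold between the libraries, had one in 15.3% and 26.9%, and Etv4 in 20.3% and 16.3%. No class examined is known to lack these genes, so no share from background RNA was set beside these values.

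Dusp5 had the highest coefficient of variation beyond counting noise of the 10 genes, at 1.66 in iWAT and 1.47 in iBAT, above 98.1% and 96.9% of the genes tested, whose medians were 0.433 and 0.420. The 10% of cells richest in Dusp5 held 59.9% of its UMIs in iWAT and 54.4% in iBAT, and single cells reached 27 and 20 UMIs. By that share, which tends to be larger for sparse genes, it was not the highest, with Spry4 at 70.6% in iWAT and Etv4 at 67.8% in iBAT. The lowest coefficients were those of Spred2 in iWAT (0.607, with 0.713 in iBAT) and Etv5 in iBAT (0.622, with 0.618 in iWAT).

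Some genes spread differently in each library. Spry4 had a coefficient of 0.973 in iWAT and 1.31 in iBAT, Spry1 0.967 and 1.3, and Etv4 0.663 and 1.03. All 10 genes exceeded the median of the genes tested in both libraries. Each had a share of cells at 0 within 1 percentage point of a single negative binomial distribution. For Dusp5 in iWAT 69.8% was observed and 70.1% fitted. The fit used the same counts, so this closeness does not show a single distribution.

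To ask whether cells high in one of the genes were high in the others, Pearson correlations of log2(UMIs + 1) were computed over the same thinned cells. All values were weak. The median over the 45 pairs was 0.040 in iWAT (range -0.044 to 0.162) and 0.085 in iBAT (-0.075 to 0.241). All pairs of genes with at least 20 CPM had medians of 0.0021 and 0.0013. Correlations of 0.1 or more were found for 5 of the 45 pairs in iWAT, against 0.589% of all gene pairs, and for 19 in iBAT, against 0.776%. The pairs of all genes were not matched for spread beyond counting noise. In both libraries each of the genes described here exceeded the median coefficient of variation of the genes tested (0.433 in iWAT and 0.420 in iBAT). The part of this spread in the contrast with all gene pairs was not tested. Cells of 1 library share their source, so these correlations are descriptions with no test.

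The highest value in each library joined a pair of phosphatases. Dusp4 and Dusp5 had a correlation of 0.162 in iWAT and 0.174 in iBAT, and Dusp5 and Dusp6 0.122 and 0.241. Spred1 followed Dusp5 (0.119 and 0.224), Spred2 (0.103 and 0.169) and, in iBAT, Dusp6 (0.198, against 0.055 in iWAT). With counting noise removed, each covariance is scaled to the variance beyond Poisson. The median over pairs was then 0.175 in iWAT and 0.288 in iBAT. The highest pair became Etv4 and Etv5 in iWAT (0.514, with 0.389 in iBAT). In iBAT it became Spred1 and Spred2 (0.494, with 0.492 in iWAT). Dusp4 and Dusp5 were at 0.351 in iWAT and Dusp5 and Dusp6 at 0.403 in iBAT. No median over all gene pairs is given for this measure.

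Spry1 stood apart from the other 9 genes in both libraries. It was negatively correlated with 8 of them in iWAT (median -0.023) and with 8 in iBAT (median -0.026). The only positive partner was Spry4 (0.023 in each). Some values were close to 0, as with Dusp4 in iWAT (-0.001) and Dusp6 in iBAT (-0.003). In iWAT Spry2 was also negative with Dusp4 (-0.041) and Dusp6 (-0.003). Genes at 20 CPM or more in both thinned libraries, which leaves out Spry4 and Etv4, were then ranked. The nearest of the 10 to Spry1 was Dusp6, at rank 3370 of 6046. For Dusp6 the nearest of the 10 was Dusp5, at rank 2. Without Spry1 the median pair was at 0.048 and 0.115.

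**Figure D2:**
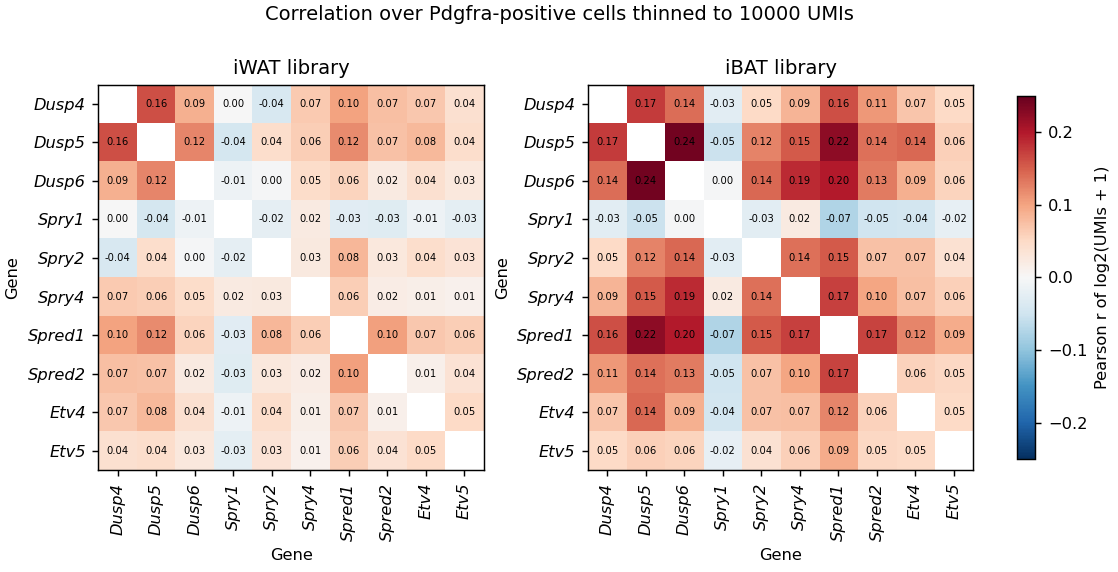
Pearson correlation (colour, from -0.25 to 0.25) of log2(UMIs + 1) between the 10 genes (both axes) over Pdgfra-positive cells thinned to 10000 UMIs, iWAT left and iBAT right. Most pairs are weakly positive, and the highest value is 0.241 for Dusp5 with Dusp6 in iBAT. The Spry1 row and column are under 0 or print as 0.00, except with Spry4.

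The genes most like each of the 10, ranked by the lower of the values in the libraries, differed between Spry1 and the others. Hmga2, which encodes a chromatin protein of growing mesenchyme, came first for Dusp5 (0.271 in iWAT and 0.367 in iBAT), Spred1 (0.208 and 0.390), Spry2 (0.198 and 0.257), Etv4 (0.139 and 0.223) and Etv5 (0.097 and 0.112). Dusp5 was followed by Hbegf (0.246 and 0.298), which encodes a ligand of the epidermal growth factor receptor, and Ptgs2 (0.232 and 0.248), the inducible prostaglandin synthase. Prkg2, a cyclic GMP-dependent kinase gene, came first for Dusp4 (0.188 and 0.184) and Dusp6 (0.129 and 0.154), and Spp1, the osteopontin gene, for Spred2 (0.113 and 0.176).

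Spry4 had only weak neighbours, with Sema7a first (0.080 and 0.163). Spry1 was nearest to Timp3 (0.179 and 0.173), an inhibitor of metalloproteinases, Amotl2 (0.169 and 0.246) and Ccn2 (0.159 and 0.243), the connective tissue growth factor gene. None of those 3 was among the 3 nearest genes of another of the 10.

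Other Erk targets and cell states were set against the sum of the 10 genes in the same cells. Ccnd1 correlated with the sum at 0.147 in iWAT and 0.350 in iBAT, Phlda1 at 0.165 and 0.313, Errfi1, which encodes a feedback inhibitor of the epidermal growth factor receptor, at 0.158 and 0.295, and the AP-1 gene Fosl1 at 0.108 and 0.285. Ier3, a further early Erk target, was at 0.005 and 0.097. The sum of the immediate early genes Fos, Egr1 and Ier2 was instead negative, at -0.097 and -0.106, and among single genes it ran in iWAT from -0.197 with Dusp4 to 0.093 with Spry2, and in iBAT from -0.132 with Etv4 to 0.083 with Spry1. Acta2, a gene of contractile cells, was at -0.179 and -0.236. Fgf2 was at 0.125 and 0.135, Fgfr1 at 0.116 and 0.123, and the summed genes of dividing cells named below at 0.034 and 0.083. Pdgfra was at 0.051 and 0.035 and the progenitor gene Dpp4 at -0.048 and -0.022. No value over all genes is given for a correlation with this sum. The UMI count of each cell before thinning was at 0.076 and 0.087, and the mitochondrial share at -0.113 and -0.143.

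The summed UMIs of the 10 genes per cell gave a single broad hump in each library. The mean was 5.15 UMIs (SD 3.34 over 15671 cells) in iWAT and 6.52 (SD 4.53 over 25927 cells) in iBAT. Variance exceeded the mean 2.16-fold and 3.15-fold, and no UMI of any of the genes was found in 2.70% and 2.77% of cells, against 0.579% and 0.148% under a Poisson distribution. The histogram smoothed over a bandwidth of 2 UMIs had 1 maximum in each library, at 4 UMIs. It kept 1 maximum at 20000 UMIs per cell, at 8 UMIs in each, with 6875 and 21747 cells.

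This count of maxima is a coarse measure. Limits were worked out for groups of equal size with Poisson counting alone and no smoothing. A second maximum then appeared only from a 3.30-fold difference of group means in iWAT and 2.90-fold in iBAT. At 20000 UMIs the limits were 2.20-fold and 2.00-fold. For the smoothed histogram no such limit was worked out. Sets of genes with a broader spread illustrate that these Poisson limits may be too low for real cells. The sum of Mki67, Top2a, Cdk1, Ccnb1, Birc5 and Ube2c, genes of dividing cells, also had 1 maximum. A pair of negative binomials fitted to it had means of 1.42 and 16.7 UMIs in iWAT, far beyond its own Poisson limit of 2.30-fold. Those means come from a fit, and no label marks such groups. The keratins Krt8, Krt18 and Krt7 over all thinned iWAT cells were at 0 in 77.5% of 24156 cells with fitted means of 0.127 and 20.9, and their second maximum, at 54 UMIs, lay in a long tail of few cells and is not read as a group. A single maximum therefore does not show a single population.

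A pair of negative binomials fitted to the 10 genes had means of 4.52 and 5.83 UMIs in iWAT, with 51.4% of cells in the lower group. In iBAT the means were 3.13 and 8.16 UMIs, with 32.7% of cells in the lower group. At 20000 UMIs the means were 9.51 and 14.1 in iWAT, with 73.3% of cells in the lower group, and 6.68 and 16.6 in iBAT, with 34.0%. All 4 fitted curves had 1 maximum. The pair was nonetheless favoured over a single negative binomial in each of these 4 fits by the Bayesian information criterion. This criterion weighs closeness of fit against the number of parameters. The gain was 40 in iWAT and 54 in iBAT and, at 20000 UMIs, 53 and 149. At the lower depth, the pair was mostly not favoured for the sums of single families. The gain was negative for Spry (-23 in iWAT and -28 in iBAT), Etv (-25 and -30), Spred in iWAT (-2) and Dusp in iBAT (-27). It was positive for Dusp in iWAT (35) and Spred in iBAT (15). Fitted groups are not treatments, and the count of maxima does not tell whether treatments differed.

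**Figure D3:**
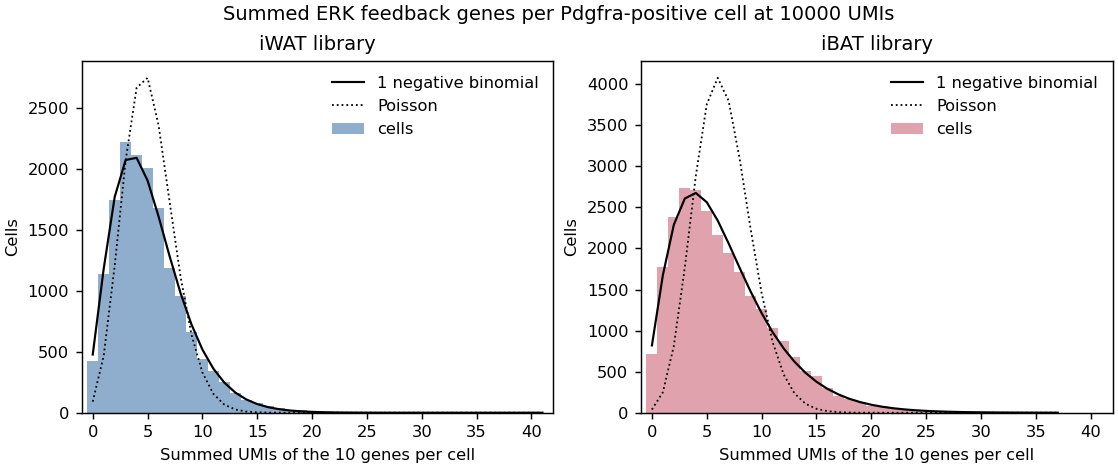
Number of Pdgfra-positive cells (y axis) by summed UMIs of the 10 genes (x axis) at 10000 UMIs per cell, iWAT left and iBAT right, with a fitted negative binomial (solid line) and a Poisson distribution of the same mean (dotted line). Each library forms 1 hump with its smoothed maximum at 4 UMIs, wider than the Poisson curve.

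Among sub-gates of at least 50 Pdgfra-positive cells, the summed genes differed most with contractile state. The 1514 iWAT and 2522 iBAT cells with the most Acta2, Tagln and Cnn1, genes of smooth muscle actin filaments, had 403 and 468 CPM of the 10 genes, against 527 and 671 in the other cells (ratios 0.765, 0.745 to 0.785, and 0.697, 0.684 to 0.710). Contractile cells are the highest 10% by these transcripts. Ratios were under 1 for 9 of the 10 genes in each library, where 71.2% and 70.9% of all genes tested were under 1. The median log2 ratio of the 10 genes was -0.35 in iWAT and -0.65 in iBAT, against -0.12 for all genes in both.

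Spry2 was at 36.0 CPM in the contractile iWAT cells and 73.5 in the others (ratio 0.489), and at 42.6 and 75.5 in iBAT (ratio 0.565). Spred1 was at 65.9 and 111 CPM in iWAT (ratio 0.593) and at 96.7 and 188 in iBAT (ratio 0.516). Etv4 had ratios of 0.807 and 0.519. The other phosphatase, Sprouty, Spred and Etv genes except Spry1 ranged from 0.706 to 0.927 in iWAT and from 0.605 to 0.718 in iBAT.

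Spry1 was the exception, at 69.6 CPM in contractile iWAT cells against 57.1 (ratio 1.22, 1.14 to 1.3) and at 88.4 against 43.8 in iBAT (ratio 2.02, 1.93 to 2.11). At the 2-fold rule, 0 genes were higher (background 0.601%) and 1 lower in iWAT (Spry2, background 0.774%), and 1 was higher (Spry1, background 1.02%) and 0 lower in iBAT (background 1.09%). At 5000 UMIs per cell neither count held, with 0 lower in iWAT and 0 higher in iBAT. The sub-gate held 12 and 114 cells that also passed the mural gate described below, and without cells of any class gate the Spry1 ratios were 1.19 and 2.01. Contractile cells were somewhat deeper before thinning, with medians of 20600 against 18860 UMIs in iWAT and 29404 against 27680 in iBAT.

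Cells with 3 or more Fgf2 UMIs had more of the 10 genes than cells with none, at 555 against 461 CPM in iWAT (ratio 1.21, 1.18 to 1.23) and 728 against 582 in iBAT (ratio 1.25, 1.24 to 1.27). Ratios were above 1 for 8 genes in each library, where 42.4% of all genes tested in iWAT and 53.8% in iBAT were under 1. The median log2 ratio of the 10 genes was 0.37 and 0.29, against 0.02 and -0.01 for all genes. No gene of the 10 reached 2-fold, against 0.0805% of all genes higher and 0.644% lower in iWAT and 0.363% and 0.465% in iBAT. Spry4 was at 20.1 and 14.1 CPM in iWAT (ratio 1.42) and at 51.4 and 32.3 in iBAT (ratio 1.59), and Dusp4 had ratios of 1.36 and 1.53. Spry1 was lower, with ratios of 0.837 and 0.898. Dusp6 had ratios of 0.922 in iWAT and 1.3 in iBAT, and without cells of any class gate the iWAT value turned to 1.09. Fgf2-rich cells were deeper before thinning, with medians of 19891 against 17563 UMIs in iWAT and 29410 against 26512 in iBAT. The part of depth in these ratios was not tested. The paper reports raised Fgf2 in immortalized brown preadipocytes given FGF8. As no cell was given a treatment, treatment cannot be told apart from Fgf2 level here, nor from the state that defines any other sub-gate. Class and sub-gate contrasts made in both libraries numbered 7. In 6 of 70 comparisons over them, a gene of the 10 lay on opposite sides of 1 in iWAT and iBAT. Both intervals were on their own side of 1 or touched it. Over all genes tested in both libraries, not matched for UMI number, the share was 2.82%.

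Cycling cells, with 3 or more of the 6 cycling genes, were compared with cells that had none. The sum was at 526 and 501 CPM in iWAT (ratio 1.05) and at 681 and 593 in iBAT (ratio 1.15). Etv4 was the most different, at 26.2 and 19.6 CPM in iWAT (ratio 1.34, 1.22 to 1.48) and 23.3 and 12.9 in iBAT (ratio 1.80, 1.65 to 1.98). Etv5 followed with 1.25 and 1.36 and Spred1 with 1.21 and 1.24, while Spry1 was lower in cycling cells at 0.854 and 0.746. No gene of the 10 passed 2-fold, where 4.55% of genes in iWAT and 5.05% in iBAT were 2-fold or more higher and 0.567% and 1.19% lower.

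**Figure D4:**
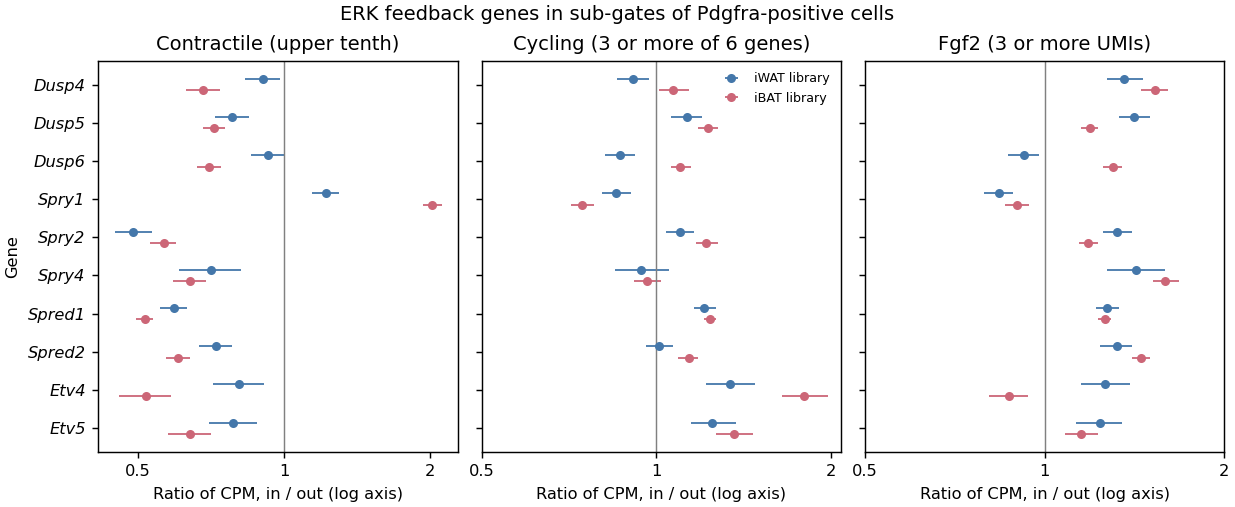
Ratio of CPM inside over outside each sub-gate (x axis, log scale) for the 10 genes (y axis) in Pdgfra-positive cells thinned to 10000 UMIs, iWAT blue and iBAT red, with exact counting intervals. In contractile cells 9 genes lie left of 1 and Spry1 right of it, and in cycling and Fgf2-rich cells Spry1 lies left of 1 in both libraries.

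Interstitial progenitors, with 3 or more of Dpp4, Pi16, Sema3c, Cd55 and Anxa3, numbered 526 in iWAT and 344 in iBAT. Spry2 was higher in them, at 104 against 68.7 CPM in iWAT (ratio 1.51, 1.39 to 1.65) and 95.6 against 72.0 in iBAT (ratio 1.33, 1.19 to 1.48), while the sum of the 10 genes had ratios of 1.02 and 1.07. None of the 10 passed 2-fold, against 0.228% of genes higher and 0.205% lower in iWAT and 0.305% and 0.180% in iBAT. Cells with 4 or more interferon-stimulated genes numbered 155 in iWAT, where the sum had a ratio of 1.06 (0.987 to 1.13) and none of the 10 passed 2-fold (background 2.24% higher and 0.237% lower). Only 42 such cells were found in iBAT and 29 adipogenic cells (0 in iWAT), too few for a comparison. The 29 adipogenic iBAT cells held 40 UMIs of Spry4, 29 of Spred1, 15 of Spred2, 11 of Dusp6 and 9 of Spry1. They also held 7 UMIs of Spry2, 6 of Dusp5, 5 of Dusp4, 4 of Etv5 and 1 of Etv4.

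The genes were then read in 6 other classes, each gated by 3 or more of its own markers and fewer than 3 of every other class, and set against the Pdgfra-positive cells outside the class. In iWAT 4969 cells passed the epithelial gate, 190 the immune, 155 the mural, 68 the Schwann, 43 the endothelial and 5 the skeletal muscle gate. In iBAT the numbers were 0 epithelial, 322 immune, 690 mural, 842 Schwann, 244 endothelial and 282 skeletal muscle. Groups under 50 cells were not compared, and levels of such groups are given without a reading. The 5 muscle-gated iWAT cells held 11 UMIs of Dusp6 (207 CPM, 103 to 370), 13 of Spry1 (245 CPM, 130 to 418) and 4 of Spry4 (75.2 CPM, 20.5 to 193), with 0 of Spred2 and Etv4.

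Markers left out of the gates were mostly higher in the class they name. Krt18 was at 900 CPM in epithelial-gated cells and 4.65 in the Pdgfra-positive cells, the macrophage gene Adgre1 at 228 and 234 CPM in immune-gated cells of iWAT and iBAT, Erg at 212 CPM in endothelial-gated iBAT cells, Sox2 at 156 and 235 CPM in Schwann-gated cells and Ttn at 1531 CPM in muscle-gated iBAT cells. Cmtm5 was 0 in Schwann-gated iWAT cells and 0.603 CPM in iBAT. Among the mural genes Myh11 was 26.7 and 6.52 times the level in the stroma and Gucy1a1 26.2 and 10.4 times, but Pdgfrb only 1.77 and 1.83 times and Cspg4 1.31 and 2.33 times. The stromal collagen gene Col1a1 was also higher in mural-gated cells, at 1.22 and 1.88 times.

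The gates were not pure. A Pdgfra UMI was also found in 16.3% of epithelial-gated, 29.5% of immune-gated and 61.3% of mural-gated iWAT cells, and in 56.5% of immune-gated, 50% of endothelial-gated, 40.6% of Schwann-gated, 40.1% of muscle-gated and 88.6% of mural-gated iBAT cells. Called doublets reached 15.2% of the endothelial-gated iBAT cells and were 1.92% of all kept iWAT and 3.63% of all kept iBAT cells. Values without Pdgfra-holding cells are given below where they differ by over 1.5 times from a ratio printed.

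Dusp6 was the gene most often higher outside the stroma. In the iWAT groups other than muscle-gated cells it was at 199 CPM in immune-gated (183 to 217), 135 in Schwann-gated (109 to 166) and 117 in epithelial-gated cells (114 to 120), 76.3 in the 43 endothelial-gated cells (56.6 to 101), 50.1 in the stroma (Pdgfra-positive cells) and 40.4 in mural-gated cells (33.3 to 48.6). In iBAT the order was immune-gated at 123 CPM (116 to 131), endothelial-gated at 117 (109 to 126), Schwann-gated at 100 (95.2 to 105), muscle-gated at 98.7 (91.0 to 107), stroma at 70.2 and mural-gated at 64.5 (61.0 to 68.1). Counting intervals overlapped between the Schwann-gated and epithelial-gated cells of iWAT. In iBAT they overlapped between the immune-gated and endothelial-gated cells, and between the Schwann-gated and muscle-gated cells. Ratios to the stroma were 4.00 for immune, 2.70 for Schwann and 2.44 for epithelial in iWAT, and 1.76 for immune and 1.67 for endothelial in iBAT. Without Pdgfra-holding cells they were 5.43, 3.02, 2.54, 2.46 and 2.06. With gates of 2 markers they were 1.47, 1.58, 2.20, 1.22 and 1.26, so that their size depended on the gate.

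Among classes of at least 50 cells Spry1 was highest in mural-gated cells, at 128 CPM in iWAT (115 to 142, ratio 2.15) and 106 in iBAT (102 to 111, ratio 2.26), and without Pdgfra-holding cells the ratios were 3.07 and 3.27, against 1.41 and 1.88 with gates of 2 markers. The 43 endothelial-gated iWAT cells were at 73.2 CPM (54.0 to 97.1) and the stroma at 59.9. Muscle-gated iBAT cells followed at 69.7 CPM (63.2 to 76.6, ratio 1.44), above the 48.3 CPM of the stroma, with endothelial-gated iBAT cells at 32.5 CPM (28.2 to 37.3) and epithelial-gated iWAT cells at 24.7 (23.5 to 25.9). Schwann-gated cells were at 16.5 CPM in iWAT (8.25 to 29.6) and 21.5 in iBAT (19.4 to 23.9), and immune-gated cells at 19.5 (14.6 to 25.6) and 24.9 (21.7 to 28.4). Their intervals overlapped in each library, and in iWAT both overlapped that of the epithelial-gated cells. In iBAT the interval of the immune-gated cells also overlapped that of the endothelial-gated cells. With gates of 2 markers the Spry1 ratios were 0.859 for Schwann-gated and 0.744 for immune-gated iWAT cells and 0.581 and 0.858 in iBAT, against 0.276, 0.326, 0.444 and 0.514 with 3. Without Pdgfra-holding cells 9 UMIs of Spry1 remained in 140 immune-gated iBAT cells (ratio 0.0613, 0.0280 to 0.116) and 3 UMIs in 61 Schwann-gated iWAT cells (ratio 0.0903, 0.0186 to 0.264), with ratios of 0.180 in immune-gated iWAT and 0.222 in Schwann-gated iBAT cells.

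Spry4 was highest among the iBAT classes in endothelial-gated iBAT cells, at 76.9 CPM against 40.3 in the stroma (ratio 1.91, 1.74 to 2.09), and without Pdgfra-holding cells at 99.9 CPM (ratio 2.48). In immune-gated cells it was at 9.59 CPM in iWAT and 15.7 in iBAT (ratio 0.529 and 0.387), and without Pdgfra-holding cells at 0.105 (3 UMIs) and 0.147 of the stroma. Spry2 was higher in Schwann-gated cells, at 153 against 69.1 CPM in iWAT (ratio 2.22, 1.81 to 2.69) and 93.6 against 73.7 in iBAT (ratio 1.27, 1.21 to 1.33), and lower in endothelial-gated iBAT cells at 35.7 CPM (ratio 0.483, and 0.201 without Pdgfra-holding cells).

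Etv4 and Etv5, which encode related factors, parted in immune-gated cells. Etv5 was at 47.9 CPM in iWAT (ratio 1.70, 1.42 to 2.02) and 47.6 in iBAT (ratio 1.97, 1.78 to 2.17), while Etv4 was at 11.1 (ratio 0.451) and 7.85 CPM (ratio 0.392). Without Pdgfra-holding cells the Etv5 ratios were 2.00 and 2.96, and those of Etv4 0.207 (8 UMIs) and 0.0825 (5 UMIs).

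Dusp4 was under the stroma in all 9 comparisons, with ratios from 0.512 in Schwann-gated iWAT cells to 0.890 in mural-gated iWAT cells, where the interval (0.739 to 1.06) included 1. Without Pdgfra-holding cells the Dusp4 ratio was 0.318 in immune-gated iWAT cells (0.614 with them) and 0.312 in endothelial-gated iBAT cells (0.523 with them), and in mural-gated iBAT cells it was 0.991 (0.769 to 1.26). Dusp5 was at 41.7 against 84.4 CPM in muscle-gated iBAT cells (ratio 0.495) and at 29.3 against 56.6 in mural-gated iWAT cells (ratio 0.519). Without Pdgfra-holding cells these ratios were 0.246 and 0.294. In muscle-gated iBAT cells Spred1 was also low, at 76.5 against 178 CPM (ratio 0.430, and 0.283 without Pdgfra-holding cells). Spred2 stayed within 2-fold in every class compared, from 0.616 in muscle-gated iBAT cells to 1.44 in Schwann-gated iWAT cells.

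At the 2-fold rule, 1 gene was higher and 2 were lower in epithelial-gated iWAT cells (background 9.18% and 9.51%), 1 and 3 in immune-gated (11.2% and 8.29%), 2 and 2 in Schwann-gated (13.2% and 11.5%) and 1 and 0 in mural-gated cells (2.18% and 1.24%). In iBAT the counts were 0 and 2 in immune-gated (8.27% and 6.13%), 0 and 1 in endothelial-gated (7.72% and 5.95%), 0 and 1 in Schwann-gated (6.61% and 7.09%), 0 and 2 in muscle-gated (10.3% and 14.2%) and 1 and 0 in mural-gated cells (1.34% and 0.612%). Spry1 was the lower gene in Schwann-gated cells of both libraries, epithelial-gated and immune-gated iWAT cells. It was joined by Spry4 in epithelial-gated, by Spry2 and Etv4 in immune-gated and by Etv4 in Schwann-gated iWAT cells. With gates of 2 markers in place of 3 every one of these counts but the epithelial higher one was 0. With 10 genes, the counts are descriptions only. The median log2 ratio of the 10 genes was under that of all genes tested in all 9 comparisons, at -0.56 against 0.03 in epithelial-gated iWAT cells and -0.75 against -0.12 in immune-gated iBAT cells. Among classes of at least 50 cells the sum of the 10 genes was highest relative to the stroma in Schwann-gated iWAT cells (ratio 1.29, 1.18 to 1.42).

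**Figure D5:**
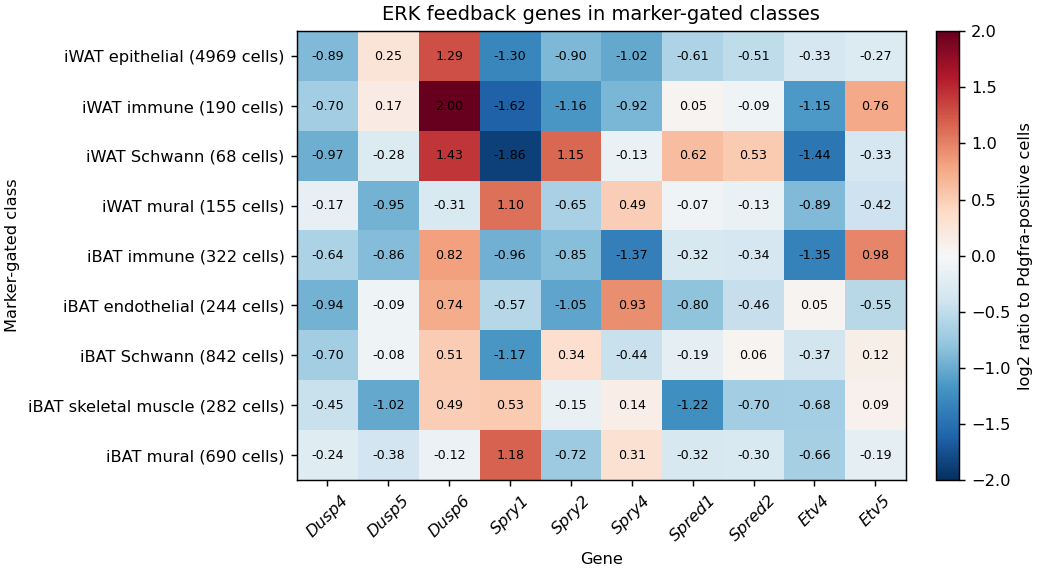
log2 ratio (colour and printed value) of each of the 10 genes (x axis) in marker-gated classes of at least 50 cells (y axis) over the Pdgfra-positive cells of the same library. Class cells that hold Pdgfra are included. Dusp6 is higher in every class but the mural ones, and Spry1 is higher in the mural classes and in muscle-gated iBAT cells and lower elsewhere.

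In the GENCODE M39 annotation of GRCm39 the 10 genes lie on 9 chromosomes, and none shares an exon with another gene on its own strand. Dusp5, Dusp6, Spry1, Spry2, Etv4 and Etv5 share exons with predicted genes on the other strand, namely Gm50394 for Dusp5, Gm34921 and Gm56965 for Dusp6, Gm42922 for Spry1, Gm62623 for Spry2, Gm39392 for Etv4 and Gm59753 for Etv5. Whether the counting used strand is not given in the sources used here, so reads of these partners cannot be told apart from those of the 6 genes. Dusp6 spans positions 99086564 to 99103361 of chromosome 10 on the plus strand and Spry1 37693897 to 37698755 of chromosome 3, also on the plus strand.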

How the data were processed

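Single-cell RNA-seq of 2 libraries, 1 per depot, was read from the matrices the authors deposited, which hold whole UMI counts for each gene in each cell and were not normalized. The submitters' processing notes name Seurat 5.0.0 and the build mm39 (GRCm39). Per the published methods, alignment and annotation were run in a commercial genomics pipeline. The aligner inside it and the handling of strand are not given in the sources used here. Kept cells had more than 200 and fewer than 7500 genes and under 30% mitochondrial UMIs, and held 501759241 UMIs in iWAT and 791392741 in iBAT. Levels are CPM summed over a group of cells. Poisson, Clopper-Pearson and conditional ratio intervals (95%, exact) cover counting error only. A gene was called at 2-fold or more among genes with at least 10 CPM in either group. With 1 library per group no test was made. Cells were thinned to 10000 UMIs for correlations, distributions and sub-gates. Doublets were called with Scrublet in scanpy 1.11.5 and kept. edgeR 4.0.16 gave TMM factors as an alternative scaling only. Other steps used Python 3.11.15, numpy 2.4.6, scipy 1.17.1 and matplotlib 3.10.9. Scripts were tested on simulated data. All 10 genes are named, with the pathway lists and, for each gene, the 3 genes at 20 CPM or more whose lower correlation of the libraries was highest. The genes, lists and gates were chosen with earlier results of these data known. The 2 libraries differ in sex-linked transcripts, and treatments were not analysed here because no cell was given one.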

Additional observations from a re-analysis of the deposited data

Results flagged for a closer look

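In 6 of 70 gene-by-contrast comparisons (8.57%), over the 7 contrasts made in both libraries, a gene lay above 1 in one library and below 1 in the other under the same contrast, with both counting intervals on their own side of 1 or touching it. Over all genes tested in both libraries 2.82% of 59492 comparisons did so. With 1 library per depot the difference was not tested. In Schwann-gated over Pdgfra-positive cells, Spred1 had a ratio of 1.54 in iWAT and 0.878 in iBAT. In cells with 3 or more Fgf2 UMIs over cells with none, Dusp6 was at 0.922 in iWAT and 1.3 in iBAT, and Etv4 at 1.26 and 0.870. The Dusp6 value in iWAT was 1.09 without cells that passed the gate of another class. In cycling over non-cycling cells, Dusp4 was at 0.912 in iWAT and 1.07 in iBAT, and Dusp6 at 0.865 and 1.1. In interstitial progenitors over other cells, Dusp4 was at 0.705 in iWAT and 1.18 in iBAT, where the interval (1.00 to 1.39) touched 1.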

How the results depend on the processing

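Of 90 log2 ratios between the libraries under alternatives, 89 kept their direction. The exception was Spry2, at 0.10 with 1 Pdgfra UMI and -0.01 with at least 2. TMM and median-of-ratios scaling each shifted all ratios by -0.03. The median correlation among the genes, 0.040 in iWAT and 0.085 in iBAT, was 0.021 and 0.057 at 5000 UMIs, 0.054 and 0.139 at 20000, 0.175 and 0.288 with counting noise removed and 0.048 and 0.115 without Spry1. In iBAT it was 0.079 in cells with 0 cycling genes and 0.084 as a mean over 5 depth bins. With at least 2 gate markers, 0 genes were 2-fold lower in epithelial-gated, immune-gated and Schwann-gated iWAT cells or in immune-gated, endothelial-gated, Schwann-gated and muscle-gated iBAT cells, and 0 were higher in immune-gated, Schwann-gated and mural-gated iWAT and mural-gated iBAT cells. With at least 4 markers, 5 were lower in immune-gated iWAT cells, 2 higher and 5 lower in immune-gated iBAT cells, and 1 higher and 3 lower in endothelial-gated iBAT cells. Without class cells that held Pdgfra, 4 were lower in epithelial-gated and 4 in mural-gated iWAT cells, 2 higher and 5 lower in immune-gated cells of each library, 2 higher and 3 lower in endothelial-gated and 1 lower in mural-gated iBAT cells. In immune-gated iBAT cells 1 was higher without doublets and 1 at 10000 UMIs, where 2 were lower in endothelial-gated iBAT cells. In contractile cells at 5000 UMIs, 0 were lower in iWAT, and 0 higher and 1 lower in iBAT. The cause was not tested. Values were taken as close where a count was within 1.5 times the main one, a median correlation equal to it at 2 decimals and a single gene's ratio inside its counting interval. Of the summary values (counts, medians and maxima) 123 equalled the main value, 10 differed but were close, and the 41 given here moved further. Of the 10, 4 were counts of genes 2-fold lower: in immune-gated iWAT cells 4 at 10000 UMIs against 3, in Schwann-gated iWAT cells 3 with at least 4 markers against 2, and in immune-gated iBAT cells 3 without doublets and 3 at 10000 UMIs against 2. Counting single genes too, 130 values moved beyond these limits, 1 reversed and 239 were equal or close. Gates of 2 markers brought the class ratios of Dusp6 and Spry1 nearer to 1, as for Dusp6 in immune-gated iWAT cells (4.00 to 1.47), except that of Dusp6 in mural-gated iBAT cells (0.917 to 0.844). The 20000-UMI depth, the depth bins, the settings without Spry1 and the sub-gates without class-gated cells were chosen after seeing the data. No paired analysis was possible because each depot had 1 library, and no replicate could be left out. Without a minimum CPM, 3731 genes were 2-fold higher and 3425 lower in iBAT.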
